A study of Homo sapiens with 8 samples.

Results

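Broad H3K27ac peaks are stretches of at least 10000 bp that the deposited peak set holds as 1 unbroken acetylated region. They were taken from the table by length alone, 1 entry per peak, and 1618 of its 126470 peaks qualified. They made up 1.28% of the peaks and held 15.3% of the acetylated bases, 25.6 of 167 Mb on genome build hg38. H3K27ac ChIP-seq and bulk RNA-seq had been done on H3122, a human lung cancer cell line driven by the EML4-ALK fusion kinase, and on lines derived from it that no longer respond to ALK inhibitors. The values cover the naive line and 3 resistant lines, erCriz0, erAlec0 and erLor0, with 1 library of each kind per line. Each resistant line had been derived under stepwise rising doses of its inhibitor and in the end kept in 0.5 μM of crizotinib for erCriz0, 2 μM alectinib for erAlec0 and 2 μM lorlatinib for erLor0. All cells, naive ones included, grew in the same serum-containing medium, and the labels give 0.1% DMSO as the treatment of each. A polyclonal antibody to H3K27ac was used throughout. RNA was isolated after a period of culture without inhibitors, while the study's ChIP-seq methods mention no such period. The drug state of peaks and RNA may therefore differ. Each resistant name stands for 1 derived culture, so the lines can be described but not tested, and p-values are left out. Values are rlog values, a log2 of the normalised read count that is drawn toward a feature's mean where reads are few, and a change is how far a resistant line lay from naive cells on that scale, positive where it lay above them. Values listed without line names stand in the order naive, erCriz0, erAlec0, erLor0, and changes in the order of the resistant lines. A peak is said to have risen or fallen where its change reached 1. The study set this limit for the RNA of genes, and it is applied here to peaks as well. In such bulk material, fewer cells carrying a mark and less of the mark per cell cannot be told apart.

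H3K27ac marks active promoters and enhancers, where acetyltransferases such as p300 and CBP deposit it. Clusters of acetylated enhancers that run together over many kilobases, often called super-enhancers, are known for lying at the genes that define a cell's identity, such as lineage transcription factors. In lung adenocarcinoma these include NKX2-1, the factor of the distal lung epithelium, and the forkhead factor FOXA1, which opens chromatin for others.

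The RNA of the lines fitted an epithelial label in most markers but not in the surfactant genes. Of 11 markers of lung adenocarcinoma epithelium, 9 were expressed, a gene counting as expressed where its rlog reached the log2 of 25 reads in any line, and 6 of the 11 started in a broad peak. NAPSA, an aspartic protease of the alveolus, and SFTPB, a surfactant protein, did not reach that level. None of the 5 leukocyte markers and none of the 3 neuroendocrine markers measured was expressed. COL1A1 was expressed among the 4 measured fibroblast markers, and CDH5 and KDR among the 4 endothelial ones, while PECAM1 and VWF stayed near 0. Those cell types' part in the results was not tested.

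The promoters of 6 genes that lie wholly inside broad peaks are shown because the peaks around them carry the results given further on. KLF5 and EPHA2 stand for a lineage factor and a receptor whose peaks stayed under a change of 1 in every line. DUSP6 and PHLDA1 stand for genes whose RNA and peak differed in direction in erAlec0 and erLor0. MYT1 and SERPINB4 stand for peaks that reached a change of 1 in at least 1 line. Each sequence is the 250 bases before the RefSeq start on GRCh38.p14, written 5′ to 3′ on the gene's strand. No exon of a protein-coding gene in GENCODE release 44 overlaps any of them, while an exon of a long non-coding RNA overlaps that of DUSP6. Capitals mark matches, on either strand, to short letter motifs bound by families of factors. These are TGANTCA for AP-1, CATTCC for TEAD, AACCNGTT for GRHL, TGTTTAC for FOXA, CCGGAAG for ETS, GGGCGG for SP/KLF and CACTTG for NKX2-1, and neighbouring matches may overlap.
KLF5 (chr13:73058755-73059004, plus strand): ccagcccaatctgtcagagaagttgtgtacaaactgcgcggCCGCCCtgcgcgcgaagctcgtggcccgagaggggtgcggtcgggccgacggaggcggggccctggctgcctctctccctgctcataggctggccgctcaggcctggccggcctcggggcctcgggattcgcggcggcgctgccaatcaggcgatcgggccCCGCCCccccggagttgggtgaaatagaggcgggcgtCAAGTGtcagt
EPHA2 (chr1:16156070-16156319, minus strand): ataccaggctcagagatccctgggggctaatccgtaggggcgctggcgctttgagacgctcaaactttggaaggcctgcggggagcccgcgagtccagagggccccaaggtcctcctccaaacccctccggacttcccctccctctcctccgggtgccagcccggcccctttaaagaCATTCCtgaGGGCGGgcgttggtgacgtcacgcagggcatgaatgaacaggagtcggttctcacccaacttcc
DUSP6 (chr12:89352502-89352751, minus strand): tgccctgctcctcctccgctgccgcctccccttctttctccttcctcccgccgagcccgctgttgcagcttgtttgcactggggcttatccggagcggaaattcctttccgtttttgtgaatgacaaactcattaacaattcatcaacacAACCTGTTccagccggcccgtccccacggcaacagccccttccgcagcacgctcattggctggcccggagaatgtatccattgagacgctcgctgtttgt
PHLDA1 (chr12:76031777-76032026, minus strand): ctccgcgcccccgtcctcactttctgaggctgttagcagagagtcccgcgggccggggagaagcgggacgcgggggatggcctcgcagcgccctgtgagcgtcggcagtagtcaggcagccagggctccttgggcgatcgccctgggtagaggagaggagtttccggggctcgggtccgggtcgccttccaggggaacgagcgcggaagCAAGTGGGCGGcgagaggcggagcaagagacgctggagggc
MYT1 (chr20:64164202-64164451, plus strand): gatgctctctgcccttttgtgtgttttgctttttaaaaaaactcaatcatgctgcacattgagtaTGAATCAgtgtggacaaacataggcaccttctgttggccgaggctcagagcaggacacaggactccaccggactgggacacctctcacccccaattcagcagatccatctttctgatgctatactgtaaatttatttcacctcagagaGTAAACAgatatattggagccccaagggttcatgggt
SERPINB4 (chr18:63644257-63644506, minus strand): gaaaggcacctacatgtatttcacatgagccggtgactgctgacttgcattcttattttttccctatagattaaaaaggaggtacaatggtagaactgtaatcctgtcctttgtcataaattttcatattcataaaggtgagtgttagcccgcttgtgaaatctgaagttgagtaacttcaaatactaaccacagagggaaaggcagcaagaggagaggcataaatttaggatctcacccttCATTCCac

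The windows of KLF5, EPHA2, DUSP6 and PHLDA1 are rich in G and C, and those of MYT1 and SERPINB4 are not. GC content was 70.8% in KLF5, 63.2% in EPHA2, 57.2% in DUSP6 and 70.4% in PHLDA1, with 27, 15, 16 and 26 CpG dinucleotides. It was 45.6% in MYT1 and 39.6% in SERPINB4, with 2 CpG dinucleotides each. The MYT1 window held 1 AP-1 and 1 FOXA match, and the SERPINB4 window 1 TEAD match. KLF5 held 2 SP/KLF and 1 NKX2-1 match, EPHA2 1 SP/KLF and 1 TEAD match, PHLDA1 1 SP/KLF and 1 NKX2-1 match that share a base, and DUSP6 1 GRHL match. Of the 713 protein-coding genes that start in a broad peak, 529 had at least 1 RefSeq window, 854 windows in all. The SP/KLF letters stood in 61.6% of them and in 42.6% of all 35116 windows of the same length, and the median GC content of the windows was 65.2% and 58%. AP-1 letters stood in 7.03% against 6.57%, TEAD letters in 9.95% against 11.9%, and ETS letters in 9.48% against 8.52%. FOXA letters stood in 2.69% against 2.98%, GRHL letters in 0.820% against 1.49%, and NKX2-1 letters in 7.38% against 9.50%. A match is a description of letters and not a bound site.

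The broad peaks ranged from 10003 to 104086 bp with a median of 13560.5 bp, and 269 of them reached 20 kb and 10 reached 50 kb. Just inside the limit lay a peak of 10003 bp in PTPRF, a receptor-type phosphatase, and one of 10004 bp in AKAP6, an anchor of protein kinase A. Just outside it lay peaks of 9995 bp on chromosome 16 and 9999 bp on chromosome 15, and their naive levels of 10.07 and 10.26 were near the 10.57 and 10.49 of the 2 peaks inside. Broad peaks were densest on chromosomes 17, 19 and 22, with 17.5, 15.2 and 10.0 per 10 Mb, and sparsest on chromosome X with 0.705. A protein-coding gene started in 553 of them, or 34.2%, against 25.6% of the peaks of 5 to 10 kb, 29.6% of those of 2 to 5 kb and 8.0% of all peaks. A longer peak has more room to hold a start, and the median length over all peaks was 522 bp. The other 1065 broad peaks held no such start, and of these 660 lay over the body of a protein-coding gene and 405 outside any. Broad peaks with a start had a median GC content of 52.0%, and those without had 46.3%. The SP/KLF letters stood at 0.890 per kb in the former and 0.361 in the latter, while AP-1 letters stood at 0.318 and 0.369. Over broad peaks together the AP-1 density was 0.350 per kb, and over all peaks it was 0.356.

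The longest peak, chromosome 19 from 41705053 to 41809138, held the starts of CEACAM5, CEACAM6 and CEACAM3, adhesion molecules of which CEACAM5 is a serum marker of adenocarcinomas. Its level was 15.10 in naive cells, 15.56 in erCriz0, 15.16 in erAlec0 and 15.44 in erLor0. The CEACAM genes resemble each other closely, so the split of reads among them is uncertain. The second, chromosome 11 from 68312800 to 68409005, lay inside LRP5, a WNT co-receptor, and had levels of 14.59, 15.12, 14.07 and 14.29 in the same order of lines. The third lay inside SEPTIN9, a cytoskeletal septin, with levels of 14.03, 14.93, 14.29 and 14.44, the highest in erCriz0. The next held the start of CUEDC1, and its levels of 15.30, 15.46, 14.99 and 15.44 moved little.

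ELF3, an ETS factor of epithelial differentiation, started in the fifth longest peak, chromosome 1 from 201999531 to 202068192, over 68662 bp. Its levels of 14.13, 14.22, 14.26 and 14.27 were nearly equal in all lines. BMF, a BH3-only protein that promotes apoptosis, had levels of 14.60, 14.89, 14.95 and 14.82 over 67989 bp. SDC1, the heparan sulfate proteoglycan syndecan-1, had levels of 14.51, 14.57, 14.75 and 14.75 over 60004 bp. SMAD3, the signal transducer of TGF-β receptors, was the one member of these 10 longest peaks with a change beyond 0.7 in any line other than SEPTIN9. Its peak of 53486 bp had levels of 13.36, 13.46, 12.60 and 12.86, a change of −0.76 in erAlec0 and −0.51 in erLor0. SMAD3 RNA changed by 0.03, 0.14 and −0.10 in erCriz0, erAlec0 and erLor0. The last 2 of the 10 were a region of 52067 bp on chromosome 9 and a region of 51371 bp on chromosome 8, which lay 101145 bp from the nearest protein-coding gene, the MYC oncogene, and had levels of 14.01, 14.26, 13.90 and 14.08. None of these 10 reached a change of 1 in any line.

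**Figure D1:**
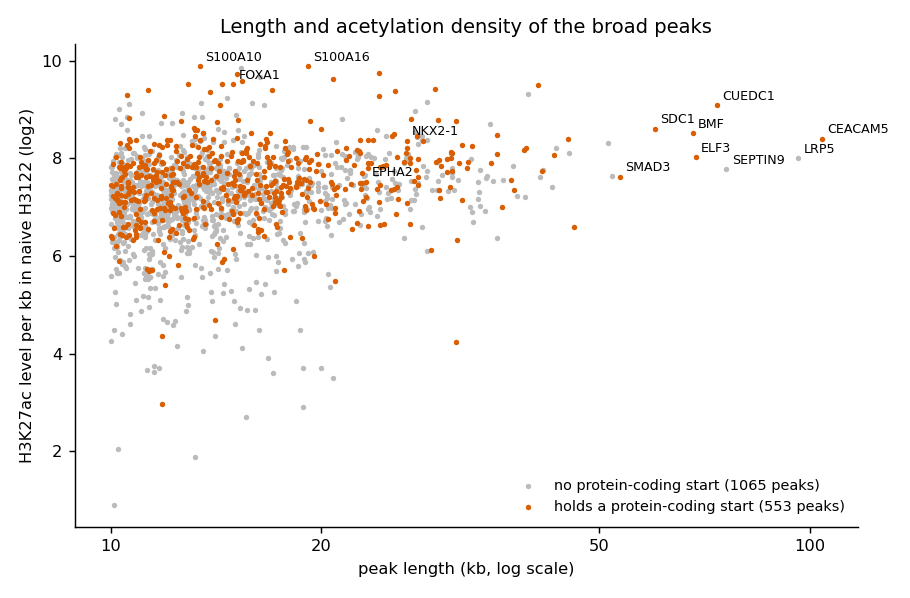
Each point is 1 broad peak, by its length in kb on a log axis and its H3K27ac level per kb in naive H3122 on a log2 scale. Orange points are the 553 peaks that hold a protein-coding start and grey points the other 1065, and the longest peaks, at CEACAM5, LRP5 and SEPTIN9, were not those with the highest level per kb, which lay at S100A10 and S100A16.

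Per kb of length, the order was another one. The level per kb, the rlog minus the log2 of the length in kb, had a median of 7.31 over the broad peaks in naive cells and ran from 0.905 to 9.90. The highest lay at S100A10, an annexin A2 partner, with 9.90, at S100A16 and S100A14 with 9.89, and in ADAMTSL4 with 9.85. S100A11 followed with 9.75, then the peak of CRTC2, SLC39A1 and CREB3L4 with 9.73, a region near PSMA6 with 9.67 and MYEOV with 9.62. The peak of VPS72 and PIP5K1A had 9.53, and FOXA1 had 9.52. Position in the genome moved with this order, since 7 of the 10 highest lay on chromosome 1 between 146 and 154 Mb. Of the 50 highest, 20 lay there and 12 on chromosome 14. Shorter peaks within 5 Mb had a median level per kb of 6.18 around S100A10 and 7.20 around FOXA1, against 5.21 over all shorter peaks. Extra copies of a region raise its peaks, and their part in this order was not tested. RNA of several of these genes rose where the peak did not. MYEOV, a gene of the CCND1 neighbourhood, had peak changes of −0.12, −0.72 and −0.54 in erCriz0, erAlec0 and erLor0, and RNA changes of 0.21, 1.82 and 1.06. S100A16 RNA rose by 1.29 in erAlec0, S100A10 RNA by 1.01 in erAlec0 and S100A14 RNA by 1.09 in erLor0, while both of their peaks changed by less than 0.2 in erAlec0 and erLor0.

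The genes that start in broad peaks had more RNA than others. Per kb of the canonical transcript, their median RNA level in naive cells was 7.61 on the log2 scale with quartiles of 5.67 and 8.95. It was 7.06 for genes starting in peaks of 5 to 10 kb, 6.75 for 2 to 5 kb, 5.84 for 1 to 2 kb, 3.96 for shorter peaks and 0.0862 for genes starting in no peak. The 713 genes were 4.03% of the protein-coding genes in the table, which holds genes with a peak within 20 kb. Of the 713, 623 were expressed.

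Across the length classes, a smaller share of broad peaks moved, yet this order turned when peaks of like level were compared. The range over the lines reached 1 in 540 broad peaks, or 33.4%, against 46.1% of the peaks of 5 to 10 kb, 49.8% of those of 2 to 5 kb and 57.5% of those of 1 to 2 kb. Longer peaks gather more reads, and both the rlog shrinkage and counting noise depend on reads. Among peaks with a mean level of 10 to 11, a range of 1 was reached by 42.0% of 540 broad peaks, 18.8% of 1095 peaks of 5 to 10 kb and 4.90% of 245 peaks of 2 to 5 kb. Among peaks with a mean level per kb of 7 to 8, the shares were 21.6% of 811, 19.5% of 1456 and 8.30% of 3146. At a level per kb of 8 to 9 they were 7.69% of 221, 9.17% of 240 and 3.68% of 353, so that broad peaks did not stand above the next shorter class there.

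**Figure D2:**
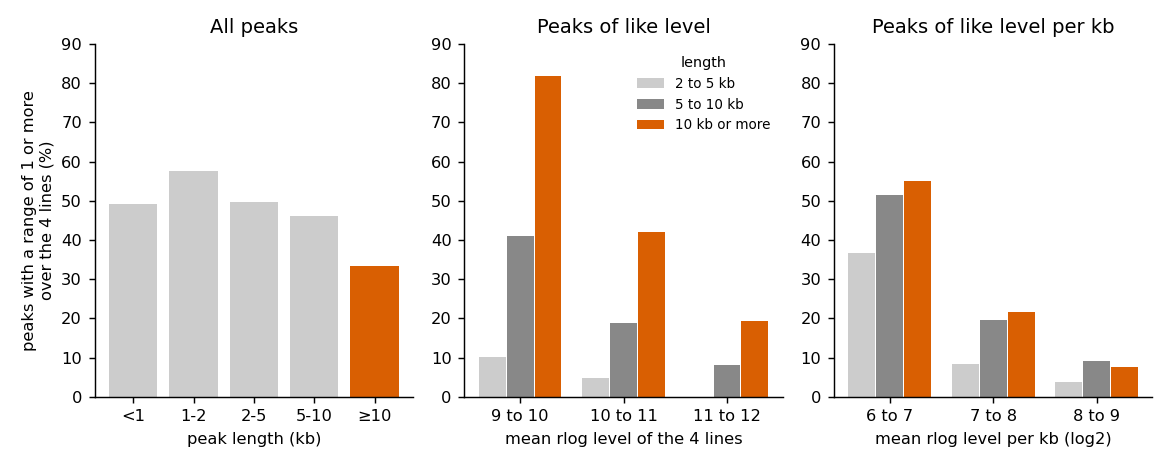
Bars give the percent of peaks whose highest and lowest rlog over the 4 lines differ by at least 1, for all peaks by length, within bands of mean level, and within bands of mean level per kb. Broad peaks, in orange, were lowest over all peaks with 33.4% and highest among peaks with a mean level of 10 to 11 with 42.0%.

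Within the broad peaks, those of low mean level per kb over the lines had the widest range. Mean and range came from the same values, and peaks were merged over samples. A region acetylated in a single line thus has a low mean and a wide range, so part of this order is built in. Among the 405 with the lowest mean level per kb, up to 6.78, 297 had a range of at least 1, or 73.3%. Among the 405 with the highest, from 7.75 on, 31 did, or 7.65%. A protein-coding start lay in 15.3% of the former and 51.4% of the latter. Of the 90 falls in erLor0, 73 lay in the group of lowest level, as did 83 of its 118 rises. The range reached 1 in 20.1% of broad peaks with a start and 40.3% of those without, and their median levels per kb in naive cells were 7.51 and 7.20. The part of level in this difference was not tested.

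Between lines, 401 broad peaks, or 24.8%, changed by at least 1 in at least 1 resistant line, and 644, or 39.8%, stayed under 0.5 in all 3, against 38.2% and 18.3% of all peaks. Of the broad peaks, 14 (0.865%) rose in one line and fell in another, against 0.623% of all peaks. In erCriz0, 49 rose and 23 fell, or 3.03% and 1.42% of the broad peaks, against 7% and 5.94% of all peaks. In erAlec0, 123 rose and 163 fell, or 7.6% and 10.1%, against 14.1% and 9.41% of all peaks. In erLor0, 118 rose and 90 fell, or 7.29% and 5.56%, against 7.45% and 8.82%. The balance of rises and falls depended on scaling, since quantile normalization over all peaks gave 30 rises and 53 falls in erCriz0 and 83 and 120 in erLor0. The comparisons share the naive library, so they are not independent of each other. The broad peaks had a median change of 0.10 for erCriz0, −0.06 for erAlec0 and 0.07 for erLor0, and the median over all peaks was 0 for erCriz0 and erLor0. Of the 553 broad peaks with a start, 65, or 11.8%, changed by at least 1 in at least 1 line. In erCriz0, 8 of them rose and 4 fell, or 1.45% and 0.723%, against 3.85% and 1.78% of the broad peaks without a start. The same kind counted 17 rises with 26 falls in erAlec0, or 3.07% and 4.7% against 9.95% and 12.9%, and 21 rises with 4 falls in erLor0, or 3.80% and 0.723% against 9.11% and 8.08%.

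**Figure D3:**
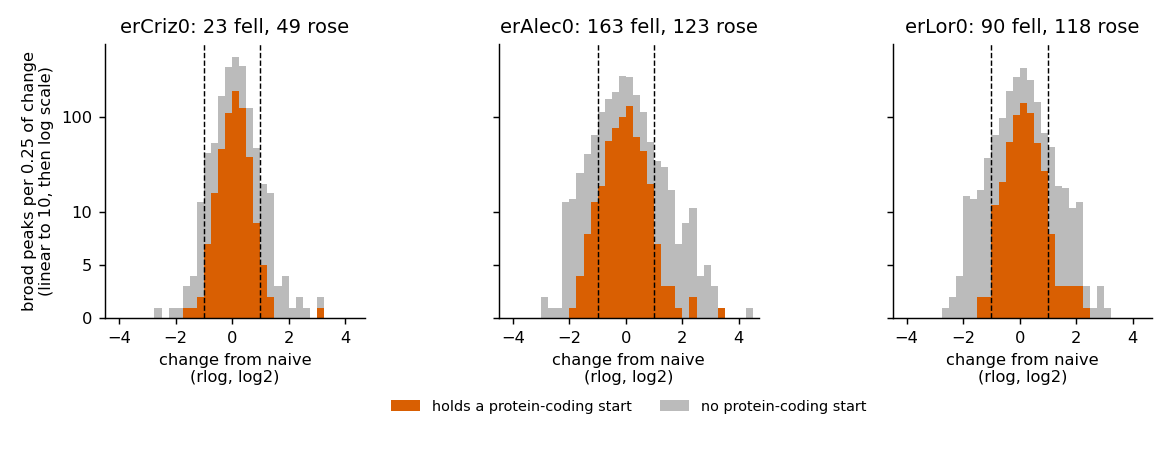
Histograms of the change of each broad peak from naive H3122 in each resistant line, in bins of 0.25 on the rlog scale, with the count axis linear to 10 and logarithmic above. Orange bars are peaks with a protein-coding start, grey bars stacked on them are those without, and dashed lines mark changes of −1 and 1, beyond which the falls and rises of each line lie, from 23 and 49 for erCriz0 to 163 and 123 for erAlec0.

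A stretch of chromosome 1 held 23 of the 118 rises in erLor0. Between 113 and 121 Mb lay 23 broad peaks around which the median change of other peaks within 5 Mb was at least 1 in erLor0, and no broad peak elsewhere had such surroundings in that line. All 23 rose in erLor0, by 1.00 to 3.10 with a median of 1.99, while the median change of the 854 shorter peaks of the stretch was 1.37. In erCriz0 none of the 23 moved by 1, and in erAlec0 1 rose and 1 fell. Without the stretch, 95 broad peaks rose in erLor0. Whether the cells carried more copies of the stretch was not tested.

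Of 34 measured lineage transcription factors, 7 (20.6%) started in a broad peak. Over all protein-coding genes of the table the share was 4.03%, and over the expressed ones 5.38%. Among 18 abundant nuclear and housekeeping genes it was 22.2%, so the lineage factors did not stand above that list. The counts of the lists that follow are to be read against these shares. None of the 7 peaks rose or fell in any line, nor did the RNA of any, and with 11.8% of the broad peaks with a start passing the limit in some line, a count of none among 7 is near that share. NKX2-1, chromosome 14 from 36499429 to 36525949, came closest among those in the lung programme. Its peak levels were 13.10 in naive cells, 13.48 in erCriz0 and 13.97 in erLor0, and its changes were 0.39, 0.90 and 0.87, with erAlec0 highest. Its RNA levels were 8.68, 8.67, 9.13 and 9.18, a smaller spread. FOXA1, chromosome 14 from 37582557 to 37597535, had peak levels of 13.43, 13.70, 13.85 and 13.84. The start of TTC6 lies in the same peak, so the signal cannot be assigned to 1 of the 2 genes. Peaks within 5 Mb of both factors had median changes between −0.39 and −0.06 in the resistant lines.

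The other 5 factors belong to the wider epithelial programme. SPDEF, an ETS factor of secretory cells, had peak levels of 10.74, 10.50, 11.65 and 11.39, a range of over 1, so that the alectinib and lorlatinib lines lay above naive cells and erCriz0. EHF, an ETS factor related to ELF3, had levels of 12.29, 12.40, 12.63 and 12.87. KLF5, a zinc-finger factor of epithelial growth whose promoter is shown above, had 12.24, 12.21, 12.01 and 12.38, a range of under 0.4. GRHL2, a grainyhead factor that maintains epithelial junctions, had 11.91, 12.08, 12.21 and 12.36. RUNX1 and RUNX2 had broad peaks only within the gene body. One of 2 in RUNX1 fell by 1.02 in erLor0, and one of 2 in RUNX2 fell by 1.15 in erAlec0, while their RNA changed by less than 0.5 in every line.

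Of 25 genes of epithelial structure, 13 (52%) started in a broad peak, against 4.03% of protein-coding genes and 5.38% of expressed ones. This was the largest share among the lists, which were chosen with earlier results of these data known. They included the keratins KRT7, KRT8, KRT18, KRT19 and KRT80, the adhesion molecule CDH1 or E-cadherin, the tight-junction proteins CLDN4, CLDN7, OCLN and TJP1, the splicing factor ESRP2, the integrin subunit ITGA3 and the desmosomal plaque protein DSP. CDH1 had peak levels of 11.06, 11.08, 11.14 and 11.24, and CLDN7 11.44, 11.43, 11.45 and 11.47. These were among the steadiest values of the lists. KRT7 had 13.66, 13.55, 13.74 and 13.63, and its RNA changed by 0.69 in erAlec0. KRT80 had 12.83, 12.72, 12.73 and 12.57, and its RNA fell by 1.09 in erCriz0.

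DSP was the one member of this list whose start lay in a broad peak that passed the limit. Its levels were 10.74 in naive cells, 9.60 in erCriz0, 10.80 in erAlec0 and 11.51 in erLor0. The peak fell by 1.14 in erCriz0, where peaks within 5 Mb had a median change of −0.59, and DSP RNA changed by 0.08. DSP RNA rose by 1.03 in erAlec0 and by 1.26 in erLor0. TJP1 had peak levels of 10.64, 10.49, 11.54 and 11.64, just under the limit in erLor0 with 0.99. ITGA3 had 12.65, 12.89, 11.93 and 12.08, a change of −0.72 in erAlec0 beside an RNA rise of 1.01. The related subunit ITGA6 had no broad peak at its start, but one within the gene had 10.47, 9.74, 8.45 and 8.57, and fell by 2.01 in erAlec0 and 1.90 in erLor0 while its RNA changed by 0.15 and 0.31.

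Of 16 measured alveolar and airway products, 2 (12.5%) started in a broad peak. MUC5AC, a gel-forming mucin, had peak levels of 10.79, 10.99, 8.92 and 9.99 over 10007 bp, and fell by 1.86 in erAlec0. Its RNA changed there by 0.67. BPIFB1, a secreted airway protein, had 10.89, 11.50, 10.69 and 11.04, and its RNA levels were 9.82, 9.38, 7.63 and 7.12, a fall of more than 2 in erAlec0 and erLor0. LPCAT1, an enzyme of surfactant lipid synthesis, held a broad peak in its body that rose by 1.51 in erAlec0, from 11.46 to 12.97, with an RNA change of 0.62.

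Receptor tyrosine kinases relay growth signals, and several are known bypass routes when ALK is inhibited. Of 31 on the list, 6 (19.4%) started in a broad peak: EPHA2, DDR1, ERBB2, ERBB3, MST1R and EPHB3. None of the 6 peaks rose or fell, a count near the 11.8% over all broad peaks with a start. EPHA2, the ephrin-A receptor whose promoter is shown above, had the longest, chromosome 1 from 16137182 to 16160373. Its peak levels were 12.06, 12.09, 11.51 and 11.73, and its RNA levels 10.55, 10.91, 12.05 and 11.29. EPHA2 RNA thus rose by more than 1 in erAlec0 beside a peak change of −0.55. MST1R, the receptor of macrophage-stimulating protein, had peak levels of 10.85, 11.17, 10.14 and 10.50, again lowest in erAlec0, where its RNA changed by 0.66.

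ERBB2, or HER2, had peak levels of 11.50, 11.82, 11.97 and 11.97 and RNA levels of 9.52, 9.18, 10.09 and 9.95. ERBB3, its kinase-impaired partner, had peak levels of 11.27, 11.56, 11.48 and 11.85, and its RNA changed by 0.91 in erCriz0. DDR1, a collagen receptor, had 11.60, 11.49, 11.68 and 11.87, and EPHB3 had 11.81, 11.99, 11.75 and 12.09. MET and IGF1R held broad peaks in the body of the gene only, at 10.18, 10.57, 9.44 and 9.75 for MET, the hepatocyte growth factor receptor, and 12.05, 11.90, 12.61 and 12.43 for IGF1R. Neither reached a change of 1.

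Among 19 measured receptor ligands, EFNA1, a ligand of EPHA2, was the one that started in a broad peak. That is 5.26% of the list, near the 5.38% of expressed protein-coding genes. The EFNA1 peak also holds the starts of SLC50A1 and DPM3. Its levels were 12.55, 12.70, 12.81 and 12.87, and EFNA1 RNA changed by 0.71, 1.04 and 0.46 over the resistant lines. EFNA5, another ephrin-A, held 3 broad peaks within the gene, and all 3 were lower in erAlec0 and erLor0. The lowest in erAlec0 had levels of 11.13 in naive cells, 9.10 in erAlec0 and 9.34 in erLor0, with changes of −0.13, −2.02 and −1.79 over the resistant lines, and another fell by 1.65 in both lines. The third had changes of −0.93 in erAlec0 and −1.08 in erLor0. EFNA5 RNA changed by −0.26 and −0.47. TGFA, an EGFR ligand, had a body peak with 11.28, 11.24, 12.10 and 11.89.

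Genes that ERK signalling switches on, many of which feed back on it, started in broad peaks in 8 of 21 cases (38.1%). They were the immediate early genes IER2 and IER3, the cell cycle driver CCND1 or cyclin D1, the ETS factor ETV4, PHLDA1, the ERK phosphatases DUSP6 and DUSP1, and the receptor inhibitor ERRFI1. In erAlec0, 7 of the 8 peaks were below naive and all 8 RNAs above it, with median changes of −0.36 and 0.72. Over all 623 expressed genes that start in broad peaks, 50.9% of the peaks were below naive, 67.7% of the RNAs above it, and both held in 33.4%, in that line. In erLor0, 6 of the 8 had a lower peak with a higher RNA, against 18.1% of all 623, and in erCriz0 none did, against 12.8%. Most of these changes were under 1. The part of the inhibitor-free period before RNA isolation in these contrasts was not tested.

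PHLDA1, a pleckstrin-homology protein induced by ERK, was the one whose peak passed the limit. Its levels were 11.73 in naive cells, 11.76 in erCriz0, 10.38 in erAlec0 and 10.97 in erLor0. The peak fell by 1.35 in erAlec0, where peaks within 5 Mb had a median change of −0.50, and its RNA changed by 0.76. DUSP6 had peak levels of 12.25, 12.48, 11.83 and 12.06 and RNA levels of 11.86, 12.65, 13.03 and 12.58, an RNA rise of 1.17 in erAlec0. ETV4 had peak levels of 11.75, 11.29, 10.77 and 11.23, just short of the limit in erAlec0 with −0.98. ERRFI1 had 11.31, 11.31, 11.01 and 11.38, and its RNA rose by 1.01 in erAlec0. CCND1 had the highest level per kb of the 8, 9.38 in naive cells, and its levels of 14.05, 13.88, 13.94 and 13.99 differed by under 0.2. SPRED2, an inhibitor of RAF activation, held a body peak of 41158 bp at 12.98, 13.05, 12.16 and 12.59.

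**Figure D4:**
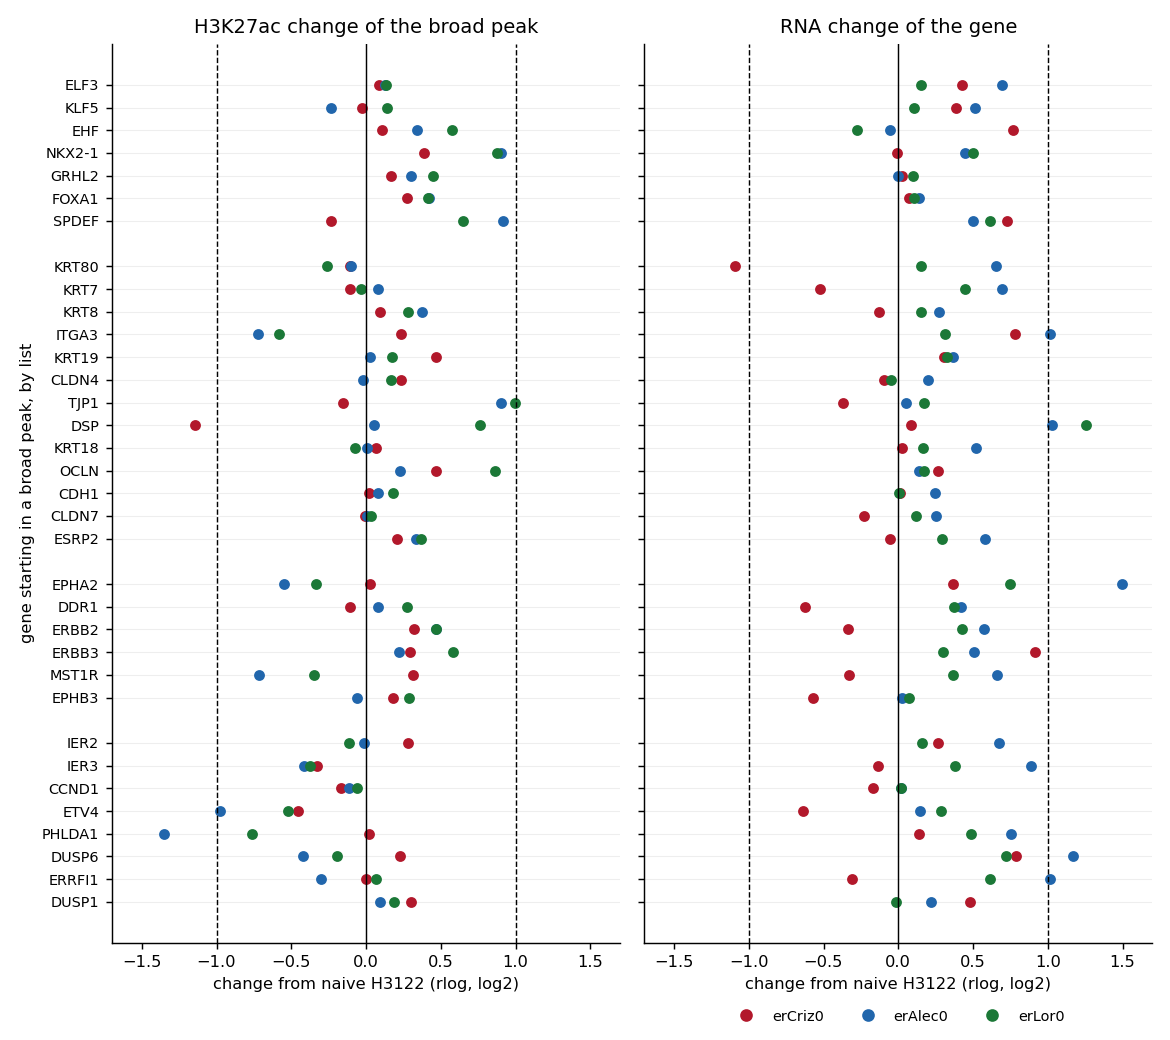
Each row is a gene that starts in a broad peak, grouped from top to bottom as lineage transcription factors, epithelial structure, receptor tyrosine kinases and ERK feedback and output. Points give the change from naive H3122 of the peak on the left and of the gene's RNA on the right, on the rlog log2 scale, in red for erCriz0, blue for erAlec0 and green for erLor0. Only DSP in erCriz0 and PHLDA1 in erAlec0 pass −1 on the left, with −1.14 and −1.35.

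In each of the RAS and PI3K, AP-1 and epithelial-mesenchymal lists 1 gene started in a broad peak, or 3.57%, 7.69% and 5% of their measured members, near the 4.03% of all protein-coding genes and the 5.38% of expressed ones. Of 28 RAS and PI3K signalling genes it was SHC1, an adaptor of receptor kinases, with 11.69, 11.78, 11.30 and 11.47. The SHC1 peak also holds the starts of PYGO2 and CKS1B. EML4, the fusion partner of ALK, held a body peak with 11.02, 11.81, 11.62 and 11.89, changes of 0.80, 0.61 and 0.87. Of 13 AP-1 factors it was JUNB, with 12.95, 13.22, 12.67 and 12.81. Of 20 genes of the epithelial-mesenchymal transition it was S100A4, which shares its peak of 40925 bp with S100A2, S100A3 and S100A5, and that peak had 14.86, 14.62, 14.51 and 14.69 while S100A4 RNA rose by 1.22 in erAlec0 and 1.48 in erLor0.

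No gene of the 19 of the YAP and TEAD pathway started in a broad peak, near the 4.03% of all protein-coding genes, though 4 held one in the body. In WWTR1, which encodes the coactivator TAZ, the levels were 10.48, 10.43, 9.27 and 9.59, and the peak fell by 1.21 in erAlec0 while its RNA changed by 0.87 there and rose by 1.40 in erCriz0. In AMOTL2, an angiomotin that binds YAP, the levels were 10.09, 9.22, 11.10 and 10.14, and both the peak and the RNA rose in erAlec0, by 1.02 and 1.12. TEAD1 and TEAD3, DNA-binding partners of YAP, had body peaks that moved by under 0.5 in every line.

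Of 32 genes of TGF-β, WNT and Notch signalling, 5 (15.6%) started in broad peaks: SMAD3, TGIF1, ID1, RNF43 and HES1. None of these peaks passed the limit, which 11.8% of all broad peaks with a start did. Broad peaks in the body of other members moved more. SMAD6, an inhibitory SMAD, held a pair of them, one with 8.46, 8.03, 10.88 and 9.06, which rose by 2.42 in erAlec0, and one that rose by 1.61. SMAD6 RNA stayed within 0.22 of its naive level. A body peak of WNT7B rose by 1.46 in erAlec0, from 10.24 to 11.70, and one of TCF7L2, a transcription factor of WNT signalling, fell by 1.00. NOTCH2, a receptor in the chromosome 1 stretch, held broad peaks in its body that rose by 3.10 and 2.68 in erLor0, and its RNA rose by 1.71 there and by 1.01 in erCriz0.

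IRF1, an interferon-induced factor, was the one of 22 NF-κB and cytokine genes (4.55%) with a start in a broad peak, at 11.43, 11.95, 11.15 and 11.46. That share was near the 4.03% of all protein-coding genes. Of 18 genes of apoptosis and the cell cycle, 4 (22.2%) had such a start, BMF, BCL2L1, BCL6 and CDKN1B. BCL2L1, which encodes the survival protein BCL-XL, had 12.69, 12.53, 12.86 and 12.92, and CDKN1B, the cell cycle inhibitor p27, had 11.61, 12.07, 12.25 and 12.28. BCL6 had 11.12, 11.58, 11.23 and 11.51, and its RNA rose by 1.02 in erCriz0. Of 18 abundant nuclear and housekeeping genes, which all cells use, 4 (22.2%) started in a broad peak, among them MALAT1, NEAT1 and GAPDH. Their peaks differed by under 0.5 from naive in every line.

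The largest changes lay mostly away from these lists. In erCriz0, SERPINB4, a serine protease inhibitor of squamous epithelia, had the largest rise. Its peak, chromosome 18 from 63637604 to 63649448, had 6.53 in naive cells, 9.69 in erCriz0, 5.98 in erAlec0 and 5.74 in erLor0. The rise in erCriz0 was 3.17, and the other resistant lines lay below naive cells. SERPINB4 is nearly identical to its neighbour SERPINB3, so reads of the pair may be split uncertainly. A peak beside CHST1, a sulfotransferase, rose by 3.15, from 8.50 to 11.66. A pair in KCNT1, a potassium channel, rose by 2.74 and 2.49, and one in OSBPL5, a lipid transfer protein, rose by 2.50. KCNT1 RNA was not expressed at the level set here.

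The largest falls in erCriz0 were in other places. A region of chromosome 14 at the immunoglobulin heavy-chain gene segment IGHV3-19 had 11.46, 8.74, 9.75 and 9.38, and so fell in all 3 lines. A peak near ZNF486 fell by 2.21 and one near ZNF626 by 1.87, both zinc-finger genes of chromosome 19, and one in UNC13B, a synaptic vesicle protein, by 1.67. A peak near FAM53A had 10.52, 8.89, 7.72 and 7.98. Its changes were −1.63, −2.80 and −2.54 over the resistant lines, the last being the largest fall in erLor0.

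The largest rise of any broad peak in erAlec0 was 4.42, in a region of chromosome 11 whose nearest protein-coding gene, NTM, lay 115294 bp away. Its levels were 5.61, 5.62, 10.02 and 6.22, so it was high in erAlec0 alone. UTP20, a ribosome biogenesis factor, started in a peak of 31224 bp that had 9.20, 9.30, 12.59 and 10.36, a rise of 3.39, with an RNA change of −0.24. A peak in VEPH1 rose by 3.14, one nearest to TMEM170B by 3.13 and one near CHST3 by 3.01. Falls were led by a peak in ZDHHC14, a palmitoyltransferase, with 10.20, 10.90, 7.41 and 7.94, whose RNA fell by 1.28, and by the peak near FAM53A. A peak in PIWIL1, a germ-line RNA silencing gene, fell by 2.73, and one nearest to SPRED1, a relative of SPRED2, by 2.30. One nearest to KRR1 fell by 2.24.

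In erLor0 the 5 largest rises were all on chromosome 1. They were the NOTCH2 peaks already given, a pair in its paralogue NOTCH2NLR with rises of 2.96 and 2.80, and a peak in ELAPOR1 that had 8.70, 8.22, 10.79 and 11.52. NOTCH2 and NOTCH2NLR share long stretches of sequence, so reads of the pair may be assigned uncertainly. The ELAPOR1 peak lay outside the stretch of high surroundings, where peaks within 5 Mb had a median change of 0.47. After the FAM53A region, the largest falls were a change of −2.26 nearest to ZNF608, −2.26 in ZDHHC14, −2.20 near ARHGAP18 and −2.18 nearest to SASH1.

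A few broad peaks set 1 line apart from all others by at least 1. erCriz0 lay above the others at 35 (2.16%) and below at 11 (0.680%), against 4.02% and 0.478% of all peaks. erAlec0 lay above at 26 (1.61%) and below at 9 (0.556%), against 4.68% and 0.137%. erLor0 lay above at 21 (1.30%) and below at none, against 0.633% and 0.0822%. Most of these 21 lay in the chromosome 1 stretch, with the widest margins, 2.34, 2.28 and 2.27, in NOTCH2NLR, near TENT5C and in NOTCH2. Shorter peaks of that stretch had a median change of 1.37 in erLor0. Naive cells lay above all resistant lines at 2 (0.124%) and below at 3 (0.185%), against 1.76% and 0.289%. The 2 were the FAM53A region and the IGHV3-19 region. The 3 lay in YPEL2, with 10.27, 11.59, 12.22 and 12.30, in TRIM14, with 9.07, 10.51, 10.21 and 11.06, and in GPRIN2, with 8.66, 9.71, 10.92 and 10.30. These 5 were named after their values were seen.

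RNA of genes in broad peaks was compared with the peak in each line. Of the 623 expressed genes, RNA rose for 15 and fell for 32 in erCriz0, or 2.41% and 5.14%, against 2.71% and 1.73% of all expressed genes. In erAlec0 it rose for 30 and fell for 11, or 4.82% and 1.77%, against 2.51% and 2.19%. In erLor0 it rose for 21 and fell for 8, or 3.37% and 1.28%, against 1.14% and 0.76%. Where a broad peak had risen or fallen, RNA moved to the same side in 8 of 13 pairs in erCriz0 (61.5%), 25 of 41 in erAlec0 (61.0%) and 20 of 22 in erLor0 (90.9%). Without the chromosome 1 stretch, 15 of 17 did in erLor0 (88.2%). RNA lay above naive for 41.6%, 67.7% and 62.8% of all 623 genes in these lines, a share to be set beside the rises only. RNA was higher at 7 of 9 rises in erCriz0, 11 of 16 in erAlec0 and 16 of 18 in erLor0. It was lower at 1 of 4 falls in erCriz0, 14 of 25 in erAlec0 and 4 of 4 in erLor0. The counts are small, and differences between lines were not tested.

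Both the peak and the RNA rose together at few genes. SERPINB4 RNA levels were 4.37, 9.95, 5.14 and 4.53, of which naive cells and erLor0 lay below the level set for expression. Its RNA rise was 5.58 in erCriz0. In the same line IFITM1 and IFITM2, interferon-induced membrane proteins in 1 shared peak that rose by 1.18, gained 2.28 and 1.30 in RNA. IFITM genes resemble each other, so their RNA split is uncertain. CLIP4, a cytoskeleton-associated protein, gained 1.39 in the peak and 1.81 in RNA. Its peak lies on chromosome 2, as does EML4, and other peaks within 5 Mb had a median change of 0.21 in erCriz0. The study reported amplified EML4-ALK in most cells of its crizotinib-resistant line. The part of copy number in the CLIP4 rise was not tested. PADI1, a peptidylarginine deiminase of the epidermis, gained 1.07 and 1.65 in erCriz0.

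In erAlec0, CDH5, which encodes VE-cadherin, had peak levels of 8.50, 8.14, 10.39 and 9.35, and gained 1.89 in the peak and 1.68 in RNA. Its RNA levels were 4.10, 4.28, 5.78 and 5.64. Naive cells and erCriz0 lay below the level set for expression, so CDH5 counts as expressed through erAlec0 and erLor0 alone. PXDC1 gained 2.28 and 1.53 in erAlec0, and in erLor0 1.53 and 1.13. RHOBTB2, a protein with BTB domains, gained 1.25 and 1.10. Both fell at B3GALT5, a galactosyltransferase, by 1.02 and 1.78, and at TXNIP, a regulator of thioredoxin and glucose uptake, by 1.13 and 1.01. TXNIP RNA levels were 13.00, 12.52, 11.99 and 9.99, so that the larger RNA fall, by 3.01, was in erLor0, where the peak changed by −0.50. RGS17, a regulator of G-protein signalling, had peak levels of 11.20, 11.65, 9.52 and 10.01, with falls of 1.69 in the peak and 1.39 in RNA in erAlec0, and 1.20 and 1.15 in erLor0.

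In erLor0 the 5 largest joint rises were all in the chromosome 1 stretch, and 4 of them are given. IGSF3, an immunoglobulin superfamily protein, gained 2.44 in the peak and 1.86 in RNA. TENT5C, a poly(A) polymerase, gained 1.79 and 1.62. MAN1A2, a Golgi mannosidase, gained 1.83 and 1.32, and TRIM33, a regulator of SMAD4, 2.15 and 1.21. The median change of other peaks within 5 Mb was 1.29 to 1.34 around these genes, so a joint rise of neighbours moved with them.

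Peak and RNA moved apart by at least 1 each at 3 genes, named after their values were seen. MYT1, a zinc-finger factor of neural development, had a peak of 37770 bp with 12.59, 13.91, 11.04 and 11.73. Its RNA levels were 9.06, 7.96, 7.87 and 7.54, so RNA fell in all 3 lines while the peak rose by 1.33 in erCriz0 and fell by 1.54 in erAlec0, so that both fell in erAlec0. MUC2, a secreted mucin, had a peak that fell by 1.19 in erAlec0 and RNA that rose by 1.12. KRT4, a keratin, had a peak that rose by 2.37 in erAlec0 and RNA that fell by 1.42.

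**Figure D5:**
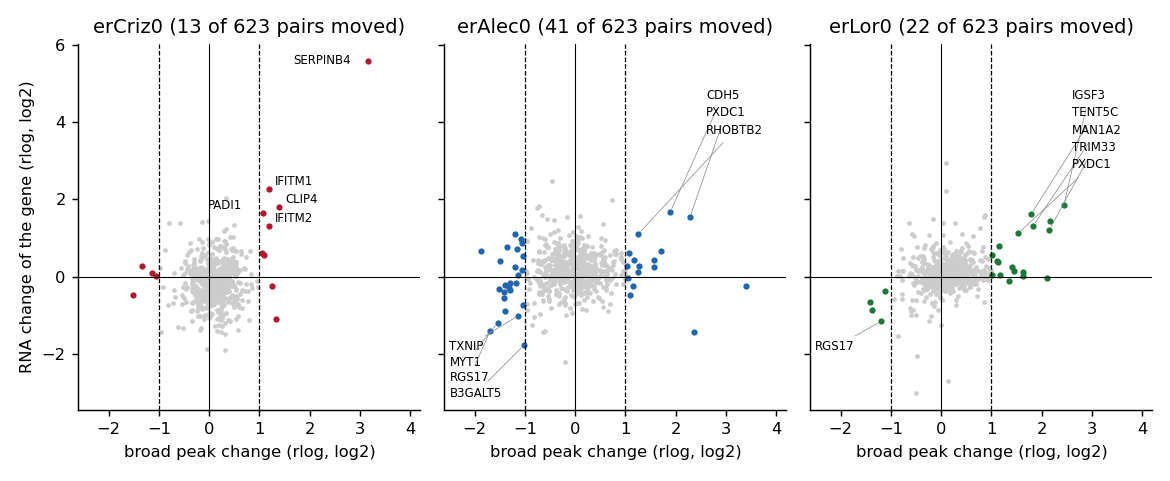
Each point is an expressed protein-coding gene that starts in a broad peak, by the change of the peak from naive H3122 and the change of its RNA, both on the rlog log2 scale. Coloured points are pairs whose peak changed by at least 1, beyond the dashed lines (13, 41 and 22 of 623), and names mark most of the genes whose RNA also changed by at least 1 in the same direction, led by SERPINB4 in erCriz0.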

How the data were processed

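H3K27ac ChIP-seq and bulk RNA-seq values of naive H3122, erCriz0, erAlec0 and erLor0 were used, and the series' 4 further samples, among them pooled input, erCriz1 and erLor1, were not analysed here. The authors deposited 1 table of peaks paired with genes within 20 kb, with rlog values on a log2 scale that they made with DESeq2 from read counts. The authors aligned ChIP reads to hg38 with BWA, kept unique reads, called peaks with MACS2, merged them over samples and counted reads with featureCounts, and they counted RNA with HISAT2 and HTSeq-count. No version of these tools is given in the sources used here, and no subtraction of input is stated. The table's correlation scores r and their p-values, also deposited by the authors, were not used, and its coordinates gave the lengths.

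Depth is unknown, since rlog values keep no read totals. Starts came from Ensembl canonical transcripts of GENCODE release 44. Regional values are medians of other peaks within 5 Mb. Analysis used pandas 2.3.3 and numpy 2.4.6 under Python 3.11.15, with pysam 0.24.0, matplotlib 3.10.9 and scipy 1.17.1, and the call step was checked on simulated data. Named were the 10 longest and 10 densest broad peaks, the 5 largest rises and falls per line, up to 6 members of each gene list with the longest peaks and all that passed 1, the 5 largest joint changes of peak and RNA, and the 2 peaks on each side of the length limit. Values of a few genes that this rule names are not reported here. Members and lists were chosen with earlier results of these data known. Alternatives were centring, quantile normalization, a limit of 1.5-fold, lengths of 5 and 20 kb, regional correction, other pairings and RNA filters, and, chosen after seeing the data, leaving out the chromosome 1 stretch.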

Additional observations from a re-analysis of the deposited data

Results flagged for a closer look

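Of the 14 broad peaks that rose by at least 1 in one resistant line and fell by at least 1 in another, 3 hold a protein-coding start and were picked out because their lines moved in opposite directions. The 14 are 0.865% of the broad peaks, against 0.623%, or 788, of all peaks. In 11 of the 14, erCriz0 was the line that rose and erAlec0 the one that fell, as it was in 440 of the 788. The MYT1 peak stood 2.87 higher in erCriz0 than in erAlec0, with changes of 1.33 and −1.54 from naive cells, and the other 2 broad peaks in MYT1 moved the same ways. The peak at CAPN5, a calpain protease, stood 2.47 higher in erCriz0 than in erAlec0, with changes of 1.09 and −1.39, and CAPN5 RNA changed by 0.55 and −0.89. The PADI1 peak stood 2.22 higher, with changes of 1.07 and −1.15, while PADI1 RNA was higher in both lines, by 1.65 and 0.73. These differences between lines were not tested, since each line has 1 library.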

How the results depend on the processing

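No paired analysis was possible because each line has 1 library. With a limit of 1.5-fold in place of 2-fold, erCriz0 had 155 rises and 95 falls, erAlec0 241 and 378, and erLor0 270 and 210. Quantile normalization gave 30 rises and 53 falls in erCriz0, which turns the balance of 49 and 23, as 83 and 120 do that of 118 and 90 in erLor0, and it moved the median change to −0.073 in erCriz0 and −0.045 in erLor0. Centring moved these medians to 0.19 and 0.17, and a minimum of 5 kb to 0.16 and 0.13, with −0.012 in erAlec0. In erCriz0 a minimum of 20 kb gave 0.081 and the regional correction 0.16. The cause of these shifts was not tested, except that a lower limit admits more peaks by construction. The other counts stayed within 1.5 times their value under the alternatives run. Medians near 0 thus carry no direction. The share of RNA on the same side in erLor0, 90.9% as deposited, was 76.4% with all genes within 20 kb. It was 72.4% with no filter on low RNA and 73.2% with the limit of 1.5-fold. In erCriz0 the share lay between 48.9% and 66.2%, and in erAlec0 between 56.25% and 61.0%. Genes that share a peak are not independent, so no interval is given. The limits are a single library per line, an unknown depth, rlog shrinkage of weak peaks, merging of peaks over samples and copy number, which raises all peaks of a region.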
